A study of Homo sapiens with 12 samples.

Results

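The fatty acid synthesis and desaturation genes described here are 10 of the 35579 genes to which the deposited estimates could be assigned: ACLY, ACSS2, ACACA, FASN, SCD, ELOVL6, FADS1, FADS2, ME1 and PNPLA3. They were selected on their place in the lipogenic pathway, with earlier results of the same libraries known, and the values in view were comparisons of TYRO3 constructs with GFP. Differences between a construct and GFP are therefore given as a description, and only comparisons of the constructs with each other are read as tests. All 10 genes passed the filter on low counts, which 15098 genes passed.

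RNA came from WM-266-4, a human melanoma cell line, and every culture, the controls included, carried a stable lentiviral knock-down of the receptor tyrosine kinase TYRO3, was grown with puromycin, and was starved of serum overnight before lysis. Cells were transfected with pEZY-myc-his GFP (GFP), with wild-type TYRO3 (WT), with TYRO3 I449A, which resists gamma-secretase (dGS), or with TYRO3 P408A, L409P and G419P, which resists cleavage by ADAM proteases (dADAM). Each of the 3 experiments contributed 1 library of each group, so that 12 libraries fell into 4 groups of 3. The labels do not say whether the experiments began from separate cultures, and all groups share 1 knock-down line, so the spread between libraries may be partly technical. A parental line without the knock-down was not analysed here.

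The total of estimated counts ranged from 18365999 to 38184838 in 11 libraries and was 4008293 in the GFP library of experiment 1, which stands apart in depth and is the only control of its experiment. TYRO3 itself was at 47.3 to 56.6 CPM, which are counts scaled to the size of the library, in the GFP libraries and at 1180 to 3690 CPM in the 9 construct libraries, with 3060 to 3690 CPM in experiment 1 and 1180 to 1790 CPM in experiments 2 and 3. Reads from the plasmid and from the endogenous gene cannot be told apart. Of 7 melanocyte lineage genes, SOX10 and PMEL were present in all libraries at no less than 213 and 709 TPM, which are scaled by transcript length as well. In CPM, which are not scaled by length, SOX10 and PMEL were at 346 to 604 and 745 to 1350. TYR, MLANA and TYRP1 were lower in CPM, at 6.76 to 17.5, 6.26 to 27.6 and 0.526 to 3.24. KRT5 was listed at 0 in every library and none of 4 leukocyte markers passed the filter. Of other lineages, 1 of 4 epithelial, 2 of 3 endothelial and 1 of 4 adipocyte markers passed. No marker of these other lists exceeded 2.63 CPM. For the mean of the 3 constructs against GFP, 2 of 7 melanocyte lineage genes were called lower and none higher, at a fold over 1.5 and an adjusted p of at most 0.05. By this rule 2.19% of all genes were called lower and 3.48% higher. The 2 genes were MITF at a log2 fold change of -0.96 ± 0.17 (SE) and DCT at -1.17 ± 0.23. The median of the 7 was -0.47, and SOX10 and PMEL were at -0.30 ± 0.086 and -0.29 ± 0.082. TYRP1 was at 0.65 ± 0.26, but rested on 2 counts in the GFP library of experiment 1. The summed level of the 7 genes was 1560 to 1890 TPM with GFP, 1020 to 1900 with WT, 1050 to 1520 with dGS and 1060 to 1570 with dADAM, and its part in the results below was not tested.

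Fatty acid synthesis starts from cytosolic acetyl-CoA, which ATP citrate lyase makes from citrate and acetyl-CoA synthetase makes from acetate. Acetyl-CoA carboxylase turns it into malonyl-CoA, fatty acid synthase builds palmitate from both, and elongases and desaturases lengthen the chain and add double bonds. The transcription factor SREBP1, made from SREBF1, is the best known activator of these genes and acts with the factor NF-Y, while its relative SREBP2 is best known for cholesterol genes. Melanoma cells, like many tumour cells, can make fatty acids of their own.

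Promoter sequence is shown for SCD and ACLY, 2 members with lower values in every construct library than in the control of the same experiment, and for ME1, a member at nearly the same level in all groups. RefSeq windows on GRCh38.p14 were found for 8 of the 10 genes, in 13 windows of 250 bases before an annotated start, and FASN and PNPLA3 have no entry in that table. The capitals mark the NF-Y box CCAAT on either strand, and bases that GENCODE v29 places in an exon of the gene are not printed.
SCD, chr10:100346983-100347123, plus strand, upstream of the annotated exon: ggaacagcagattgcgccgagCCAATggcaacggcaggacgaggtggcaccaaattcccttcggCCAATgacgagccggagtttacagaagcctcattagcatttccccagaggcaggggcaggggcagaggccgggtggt
ACLY, chr17:41919023-41919272, minus strand, in an intron of the longer ACLY gene model and ahead of a RefSeq start: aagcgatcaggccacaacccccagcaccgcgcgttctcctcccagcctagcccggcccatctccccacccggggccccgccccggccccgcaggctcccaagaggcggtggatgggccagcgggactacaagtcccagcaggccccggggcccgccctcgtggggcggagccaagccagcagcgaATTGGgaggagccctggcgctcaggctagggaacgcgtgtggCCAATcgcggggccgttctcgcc
ME1, chr6:83431072-83431301, minus strand, upstream of the annotated exon: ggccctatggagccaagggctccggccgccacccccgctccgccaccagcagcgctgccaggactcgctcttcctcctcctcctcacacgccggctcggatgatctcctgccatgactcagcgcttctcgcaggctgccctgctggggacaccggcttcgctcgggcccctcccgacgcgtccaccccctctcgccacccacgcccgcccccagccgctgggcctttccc
CCAAT was in 6 of the 13 windows, which belong to SCD, ACLY, ACACA and ACSS2, and both ACLY windows overlap and hold the same boxes. No CCAAT was in the windows of ELOVL6 and FADS1, which were also below their own control in every construct library. The windows of FADS2 and ME1 held none either. Of the 250 bases, 194 in the FADS1 window and 85 in the ELOVL6 window lie in annotated exons of the gene. A link between the box and the levels was not tested. In SCD the boxes began 229 and 186 bases before the RefSeq start, and in the ACLY window printed 65 and 23 bases before it. The box CCAAT was found in 32% of the 35116 RefSeq windows of the same length. The sterol response element was searched on both strands as TCACCCCAC, which 0.36% of all windows hold, and as TCACNCCAC, which includes it and which 0.88% hold, and the E-box as CACGTG, which 6.34% hold. None of these 3 strings was in a window of the 8 genes, which says only that these letters are not there.

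Per unit of transcript length, SCD was the most abundant member in the GFP libraries, at 584 ± 136 TPM (SD, n = 3), followed by ACLY at 344 ± 72.6 and FASN at 207 ± 39.0 TPM. FADS1 stood at 113 ± 18.3 TPM, ME1 at 73.6 ± 14.5 and ELOVL6 at 73.5 ± 4.46. The lowest levels were those of ACSS2 at 41.7 ± 11.7, FADS2 at 34.4 ± 9.27, PNPLA3 at 33.0 ± 15.1 and ACACA at 21.1 ± 2.78 TPM. The ranges over the 3 libraries did not overlap between SCD, ACLY, FASN, FADS1 and the next gene in this order, but ME1 overlapped ELOVL6, and each of ACSS2, FADS2 and PNPLA3 overlapped its successor.

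**Figure D1:**
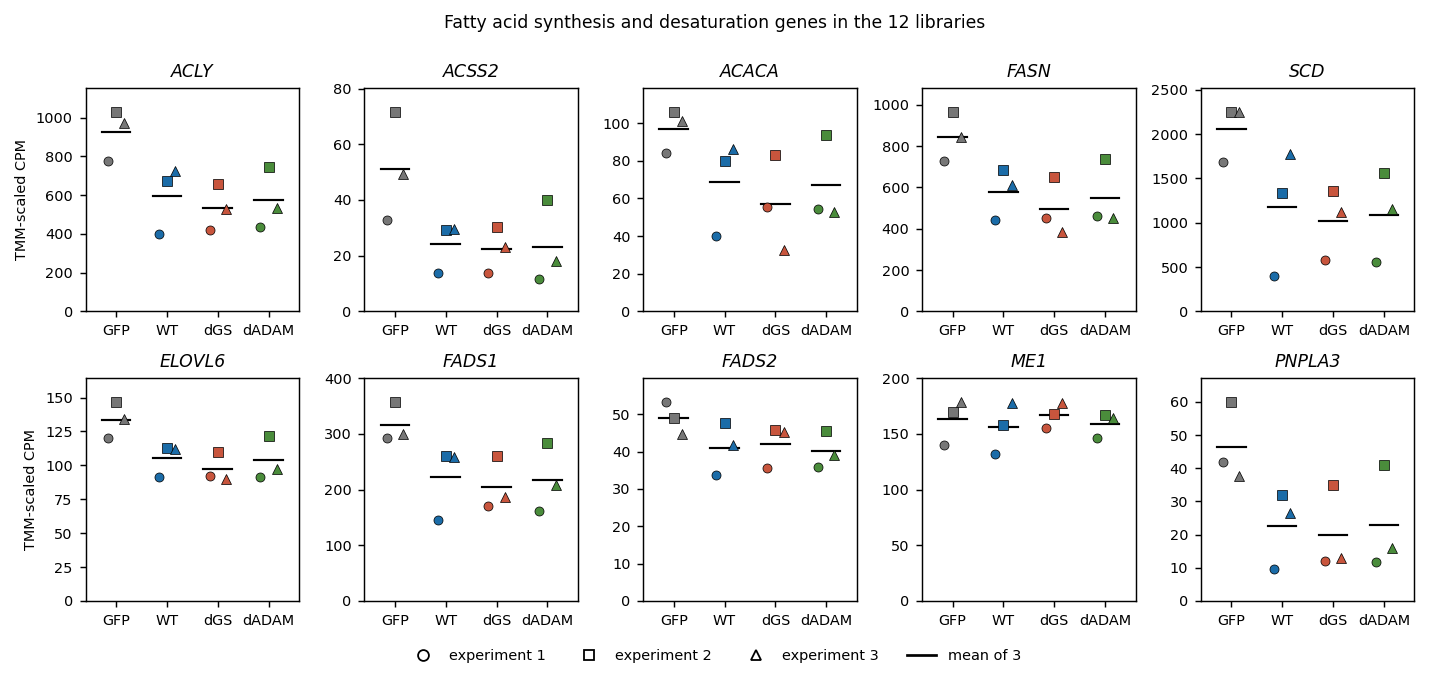
Levels of the 10 genes in CPM (vertical axes, from 0, scaled by TMM factors) in the GFP, WT, dGS and dADAM libraries, with 1 symbol per experiment and a bar at the mean of 3. The construct libraries lie below all GFP libraries for ACLY and FADS1, and the groups lie at about one level for ME1.

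Each value below is given in the order of experiments 1, 2 and 3, and fold changes of the mean of the 3 constructs against GFP are log2 values from edgeR with experiment as a block. As these are bulk RNA samples, fewer cells that express a gene and less RNA of it per cell cannot be told apart. For ACLY, ATP citrate lyase, the GFP libraries held 776, 1030 and 972 CPM, against 398, 673 and 724 with WT, 421, 656 and 527 with dGS, and 438, 747 and 533 with dADAM. All 9 construct libraries were below all 3 controls. This absence of overlap held for 2 of the 10 genes, ACLY and FADS1, and for 5.21% of the 15098 genes tested. The log2 fold change of ACLY was -0.73 ± 0.094 (SE), or 60.4% of the control level, and it was -0.63 without the GFP library of experiment 1.

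ACSS2, the cytosolic enzyme that makes acetyl-CoA from acetate, held 32.9, 71.6 and 49.3 CPM with GFP, 13.6, 29.1 and 29.5 with WT, 13.6, 30.3 and 23.1 with dGS, and 11.5, 39.9 and 17.9 with dADAM. Within each experiment the 3 constructs were below the control, although the dADAM library of experiment 2 exceeded the shallow GFP library of experiment 1, in which ACSS2 rested on 125 counts. The log2 fold change was -1.16 ± 0.14 (SE) with all libraries and -1.08 without that GFP library, so ACSS2 kept about the same size of difference.

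ACACA, acetyl-CoA carboxylase of the cytosol and the committed step of the pathway, stood at 84.2, 106 and 101 CPM with GFP and at 40.2, 80.0 and 86.3 with WT. It was at 55.6, 83.3 and 32.6 CPM with dGS and at 54.5, 93.9 and 52.6 with dADAM. The dGS library of experiment 3 was the lowest of all, and 2 construct libraries fell inside the range of the controls. The construct libraries of ACACA spread from 32.6 to 93.9 CPM, and the log2 fold change of -0.63 ± 0.22 (SE) did not pass the threshold on the adjusted p of edgeR, which was 0.0729.

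FASN, the multifunctional synthase that makes palmitate, was at 726, 965 and 844 CPM with GFP, 440, 682 and 610 with WT, 454, 650 and 385 with dGS, and 462, 737 and 453 with dADAM. Only the dADAM library of experiment 2 reached the range of the controls. FASN had a log2 fold change of -0.66 ± 0.10 (SE), or 63.1% of control, and -0.64 without the GFP library of experiment 1.

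SCD, which puts the double bond into saturated acyl-CoA to make oleate and palmitoleate, stood at 1690, 2250 and 2250 CPM with GFP and at 404, 1340 and 1780 with WT. It was at 577, 1360 and 1120 CPM with dGS and at 555, 1560 and 1150 with dADAM. All constructs were below the control of their own experiment, most of all in experiment 1, and the WT library of experiment 3 lay between the controls. The log2 fold change of -1.08 ± 0.20 (SE) became -0.69 without the GFP library of experiment 1, and SCD then no longer passed the threshold (edgeR, adjusted p = 0.0604).

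ELOVL6, the elongase of saturated and monounsaturated chains, held 120, 147 and 134 CPM with GFP, 91.3, 113 and 112 with WT, 92.3, 110 and 89.6 with dGS, and 91.6, 122 and 97.4 with dADAM. It showed a small and even difference from control in all experiments. Its log2 fold change was -0.39 ± 0.065 (SE) and -0.38 without the GFP library of experiment 1, both under the fold threshold of 1.5.

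FADS1 and FADS2 encode desaturases of polyunsaturated fatty acids and lie on opposite strands of chromosome 11 with overlapping gene models, from 61799625 to 61829318 and from 61792980 to 61867354 (GRCh38). The kit kept strand, but whether kallisto used it is not given in the sources used here, so a share of reads between both genes is uncertain. FADS1 was at 292, 358 and 300 CPM with GFP, 146, 261 and 259 with WT, 170, 260 and 186 with dGS, and 162, 283 and 209 with dADAM. All its construct libraries were below all controls, and the log2 fold change was -0.58 ± 0.11 (SE), which was just short of the fold threshold, and -0.43 without the GFP library of experiment 1.

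FADS2 was at 53.4, 48.9 and 44.8 CPM with GFP, 33.7, 47.7 and 41.7 with WT, 35.5, 45.7 and 45.2 with dGS, and 36.0, 45.5 and 39.2 with dADAM. In experiments 2 and 3 the constructs were close to their controls, and 1 of the 6 libraries was above its own. The log2 fold change of -0.24 ± 0.095 (SE) thus became -0.074 without the GFP library of experiment 1, and FADS2 was not called in either fit.

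ME1, the cytosolic malic enzyme that supplies NADPH to fatty acid synthase, was at 140, 170 and 179 CPM with GFP, 132, 158 and 178 with WT, 155, 168 and 178 with dGS, and 146, 167 and 164 with dADAM. The groups overlapped almost wholly, with 8 of 9 construct libraries inside the range of the controls. The log2 fold change was -0.023 ± 0.060 (SE), with a 95% interval from -0.16 to 0.11, which excludes a difference of 1.5-fold in this fit.

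PNPLA3, a lipid droplet protein whose gene is a target of SREBP1, stood at 41.8, 60.1 and 37.7 CPM with GFP and at 9.61, 31.9 and 26.4 with WT. It was at 12, 34.9 and 13.1 CPM with dGS and at 11.6, 41.1 and 16 with dADAM. Every construct library was below the control of its experiment, and only the dADAM library of experiment 2 lay inside the range of the controls. PNPLA3 had a log2 fold change of -1.18 ± 0.22 (SE), or 44.2% of control, and -0.88 without the GFP library of experiment 1, where it rested on 159 counts.

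**Figure D2:**
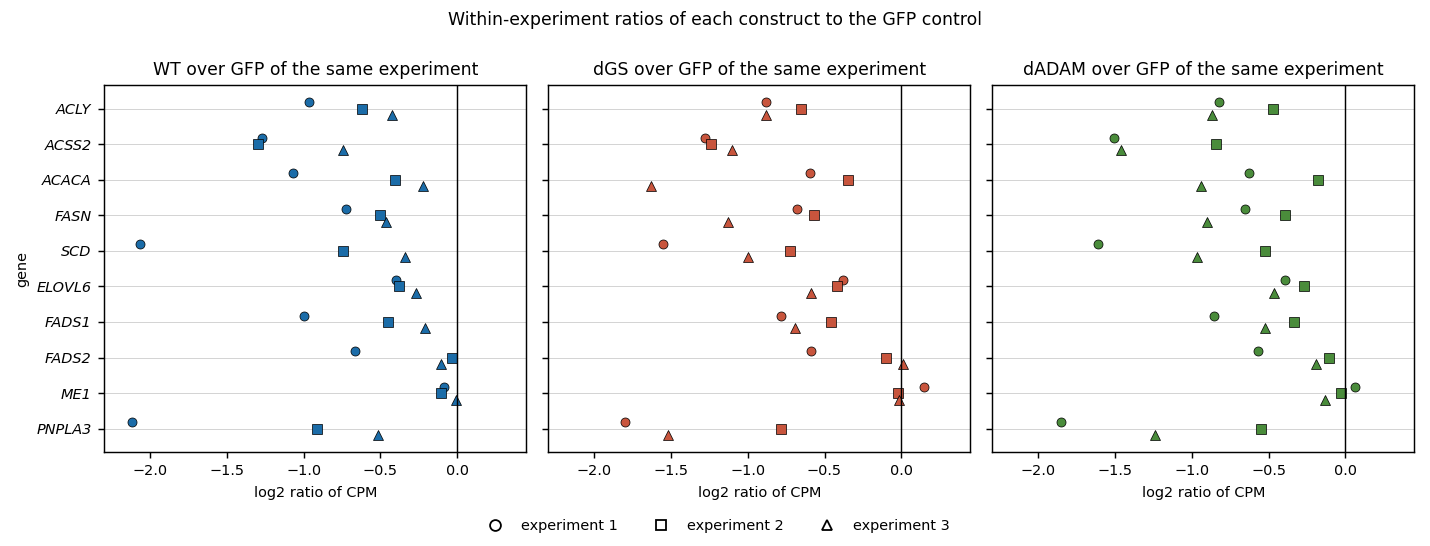
Log2 ratio of CPM (horizontal axes) of each construct to the GFP library of the same experiment, for the 10 genes, with 1 symbol per experiment. In experiment 1 SCD and PNPLA3 lie farthest to the left with WT, at -2.07 and -2.12, and ME1 lies near 0 throughout.

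Compared within experiments, 87 of the 90 ratios of a construct to its own control were below 1, and 59 of the 60 ratios without experiment 1. The 3 constructs of an experiment share its GFP library, so these ratios are not independent of each other. The share of such ratios over all genes was not counted, so nothing is read from these counts. The median log2 ratio over the 10 genes was -0.98 in experiment 1, -0.48 in experiment 2 and -0.30 in experiment 3 with WT. It was -0.73, -0.51 and -0.94 with dGS, and -0.74, -0.36 and -0.88 with dADAM. SCD showed the spread at its widest, since its ratio with WT was -2.07, -0.75 and -0.34 in the 3 experiments, whereas that of ELOVL6 was -0.40, -0.38 and -0.27. TYRO3 was also highest in experiment 1, and its part in the size of these ratios was not tested.

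A gene was called where its fold change exceeded 1.5 and its adjusted p did not exceed 0.05 (edgeR, Benjamini-Hochberg over all genes tested). By this rule 2 of the 10 genes were called lower with WT (ACLY and ACSS2), where 0.689% of all genes were called lower. With dGS 6 were called lower (ACLY, ACSS2, FASN, SCD, FADS1 and PNPLA3) beside 1.88% of all genes, and with dADAM 5 (the same without FADS1) beside 2.05%. For the mean of the 3 constructs, 5 were called lower (ACLY, ACSS2, FASN, SCD and PNPLA3) beside 2.19% of all genes, and none was called higher in any comparison with GFP. With no threshold on the fold, ELOVL6 and FADS1 joined them, which made 7 of the 10 beside 8.6% of all genes. Without the GFP library of experiment 1 these were 5, since SCD and FADS1 (edgeR, adjusted p = 0.0604 and 0.06) no longer passed. As the genes were selected with these contrasts in view, nothing is read from these counts.

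Several of these counts rested on single libraries or on the block. Without the GFP library of experiment 1 the calls were 1 with WT, 3 with dGS, 2 with dADAM and 4 for the mean of the constructs, and without experiment 1 they were 0, 1, 0 and 4. Without a replicate block, with a term for experiment 1 alone, they were 0, 1, 2 and 5. The calls with WT were 0 without its library of experiment 1 or of experiment 2, 6 without that of experiment 3, and 4 without the GFP library of experiment 2 or the dGS library of experiment 3. With dGS they were 3 without its library of experiment 2 or of experiment 3. With dADAM they were 2 without its library of experiment 1, 1 without that of experiment 3, and 3 without the GFP library of experiment 3. For the mean of the constructs no library left out moved the count outside 4 to 7.

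**Figure D3:**
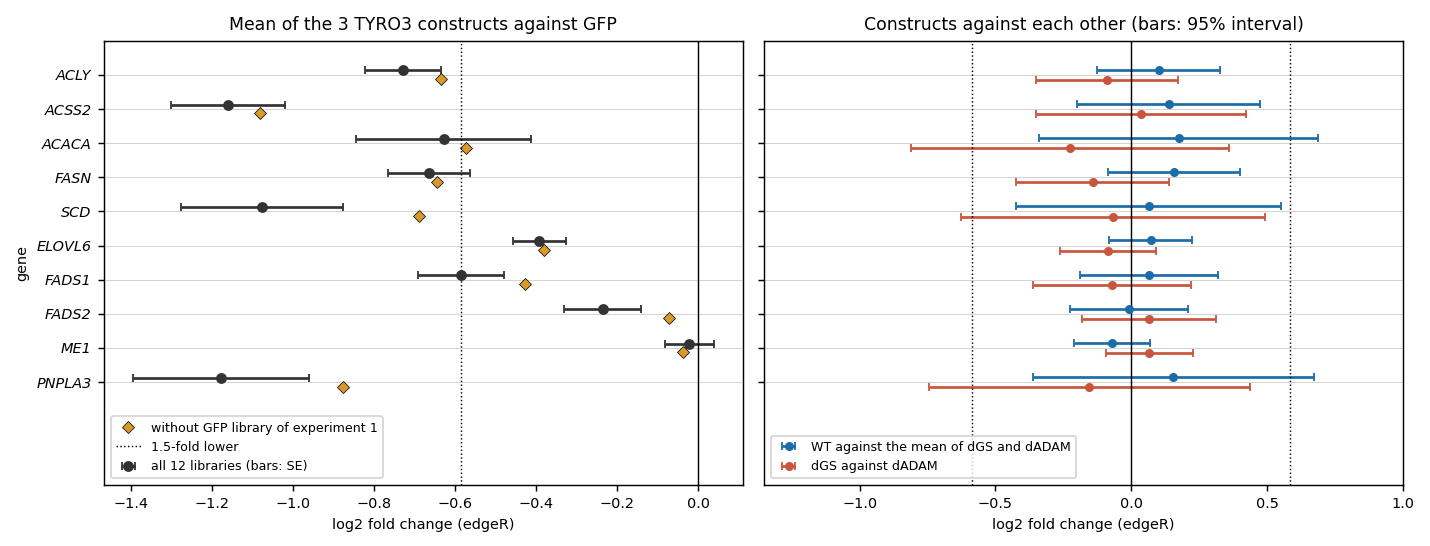
Log2 fold changes (horizontal axes, edgeR) of the 10 genes, on the left for the mean of the 3 constructs against GFP with SE and, as diamonds, without the GFP library of experiment 1, and on the right for the constructs against each other with 95% intervals. Dotted lines mark 1.5-fold. SCD moves from -1.08 to -0.69 when that library is left out, and every interval on the right includes 0.

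Comparisons of the constructs with each other ask whether the release of the TYRO3 ectodomain and intracellular domain, which dADAM and dGS hinder, goes with a difference in these genes. None of the 10 genes was called between WT and the mean of dGS and dADAM, nor between dGS and dADAM, where 0% of the 15098 genes were called in each comparison by edgeR. At an unadjusted p under 0.05 there were 237 and 216 of the 15098 genes, 0 of them among the 10, and DESeq2 called 5 and 1. These are fewer genes than a threshold of 0.05 would pass without any difference, and 0 of 10 at such a share says little. The lack of calls therefore does not show that the constructs are alike. The smallest unadjusted p of the 10 genes was that of FASN, at 0.179, with a log2 difference of WT from the variants of 0.16 ± 0.11 (SE) and a 95% interval from -0.085 to 0.40 (edgeR, adjusted p = 1). For 8 of the 10 genes in the first comparison and 7 of 10 in the second, the 95% interval lay inside 1.5-fold in both directions. It reached past 1.5-fold for ACACA, from -0.34 to 0.69 for WT against the variants and from -0.81 to 0.36 for dGS against dADAM, and for PNPLA3, from -0.36 to 0.67 and from -0.74 to 0.44. For SCD it did so in dGS against dADAM alone, from -0.62 to 0.49. A 1.5-fold difference was thus not excluded for these genes.

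The order of the constructs changed between experiments. WT was below the mean of dGS and dADAM for 9 of the 10 genes in experiment 1 and for 9 in experiment 2, with a median log2 ratio of -0.15 and -0.070, and above it for 9 of the 10 in experiment 3, with a median of 0.49. In experiment 3 the lowest group was dGS for 7 of the 10 genes and dADAM for 3. That dGS library had 100338 transcripts at 0, against 89703 and 91330 in the dGS libraries of experiments 1 and 2. The other libraries of experiment 3 had 92919 to 98113. The part of that library in the order was not tested. ACACA had WT at -0.46, -0.15 and 1.06 relative to the variants in experiments 1, 2 and 3. The same values were -0.49, -0.12 and 0.64 for SCD, and for PNPLA3 -0.30, -0.25 and 0.87. With 1 library of each construct per experiment, these differences between experiments have no replicate of their own. The same order was not counted over all genes.

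Most of the estimate of each gene came from 1 or a few annotated transcripts. SCD and ME1 have 1 transcript each in the files, SCD-201 and ME1-201, and FADS1-201 held 88.8% of the TPM of FADS1 on average over the 12 libraries. FASN-201 held 64.4% and FADS2-201 67.4%. For ELOVL6 a transcript of 204 bases, ELOVL6-207, held 19.9% of the TPM, and for ACSS2 a retained intron of 280 bases, ACSS2-219, held 15.3%, and such short models weigh more in TPM than in counts.

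Shares within ACLY and ACACA differed between libraries. ACLY-202 held 4.09%, 14.0% and 9.51% of the TPM of ACLY in the GFP libraries and 15.8% to 25.3% in the 9 construct libraries, so that the groups did not overlap. Of 18 transcripts with a mean share from 10% to under 100%, only ACLY-202 separated the GFP libraries from the 9 others in either direction. It is named because of its values. How many of all transcripts separate in this way was not counted, so nothing is read from it. In experiment 2 the GFP and WT libraries were close, at 14.0% and 15.8%. The lowest share, 4.09%, was in the shallow GFP library of experiment 1. ACACA-231, the main protein-coding transcript of ACACA, held 49.8% to 82.1% in 11 libraries and 17.3% in the dGS library of experiment 3, in which ACACA-245 held 51.9%. That library also had the lowest ACACA level in CPM of all. These shares are kallisto estimates for transcripts that overlap widely, without a test.

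Regulators of the pathway included lower values of the SREBP system. SREBF1 was at 248, 241 and 221 CPM with GFP, 89.1, 204 and 173 with WT, 109, 183 and 156 with dGS, and 88.5, 202 and 125 with dADAM. All 9 construct libraries were below all controls, which held for 5.21% of the 15098 genes tested. The log2 fold change was -0.76 ± 0.16 (SE) with an adjusted p of 0.0122 (edgeR). For single constructs the adjusted p was 0.0864 with WT, 0.0538 with dGS and 0.0275 with dADAM (edgeR), so SREBF1 was called with dADAM alone. The difference was widest in experiment 1, whose only control is the shallow GFP library. Of 22 lipogenic regulators tested, 4 were called lower and none higher in the mean of the constructs against GFP, where 2.19% of all genes were called lower and 3.48% higher. They were INSIG1, an SREBP retention protein and SREBP target, at -1.19 ± 0.23 (SE), LPIN1, a phosphatidate phosphatase and coregulator, at -0.94 ± 0.16, SREBF1, and SREBF2 at -0.62 ± 0.13. INSIG1 was at 414, 502 and 446 CPM with GFP and at 80.0, 328 and 302 with WT, so its difference was also widest in experiment 1. Values of these regulators without the GFP library of experiment 1 are not given here. The median of the 22 was -0.082, beside -0.0029 over all genes and -0.65 over the 10 genes.

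**Figure D4:**
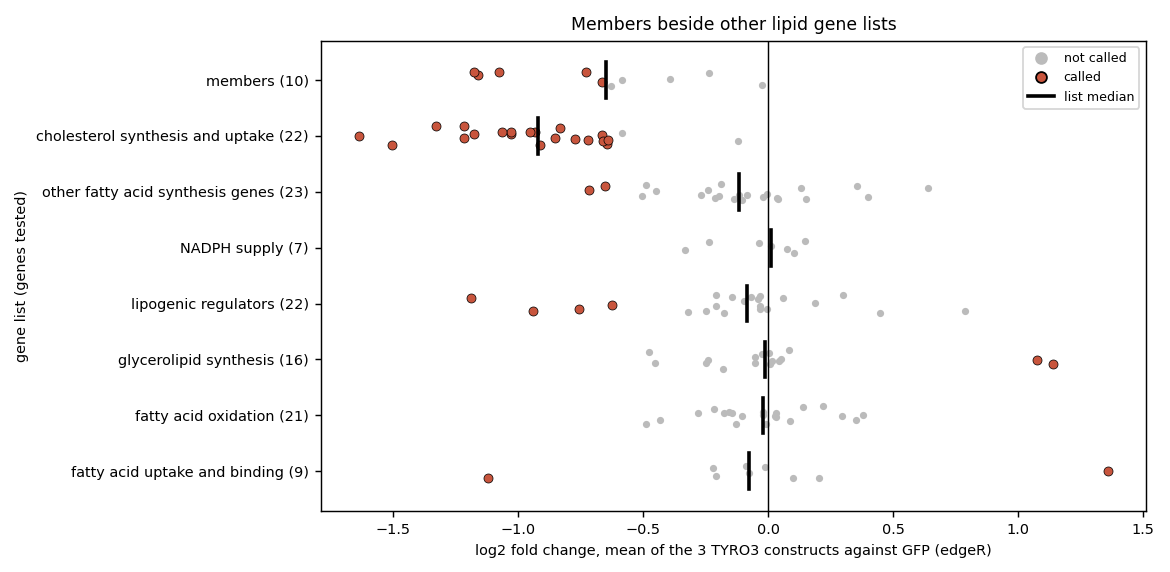
Log2 fold change (horizontal axis, edgeR) of the mean of the 3 constructs against GFP for each gene tested in 8 lipid gene lists (rows), with called genes in red and a bar at the median of the list. The medians are -0.65 for the 10 genes, -0.92 for cholesterol genes and between -0.12 and 0.010 for the other 6 lists.

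Among 23 other genes of fatty acid synthesis, elongation and desaturation that were tested, 2 were called lower, beside 2.19% of all genes, and none higher, with a list median of -0.12. They were SLC25A1, the mitochondrial citrate carrier that feeds ACLY, at -0.72 ± 0.13 (SE), and ELOVL2, an elongase of polyunsaturated chains, which was named after its value was seen, at -0.65 ± 0.14. ACSL1 and ACSL3, which activate long-chain fatty acids, were at -0.45 ± 0.068 and -0.49 ± 0.093, under the fold threshold. The list of NADPH supply had 0 of 7 called and a median of 0.010, with ME2, the mitochondrial malic enzyme, at -0.33 ± 0.064, TKT at -0.24 ± 0.079 and TALDO1 at 0.15 ± 0.086. ME1, at -0.023, lay within the range of this list, from -0.33 to 0.15, but not near ME2.

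Cholesterol synthesis and uptake had 20 of 22 tested genes called lower and none higher, beside 2.19% and 3.48% of all genes, with a median of -0.92. This list was already known to be lower in these libraries when it was chosen, so its count is a description. HMGCS1, the synthase ahead of HMG-CoA reductase, was at -1.64 ± 0.21 (SE), FDPS, which makes farnesyl diphosphate, at -0.77 ± 0.097, and SC5D, a late desaturase of the sterol ring, at -0.66 ± 0.081.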

How the data were processed

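The authors trimmed the reads and estimated counts and TPM per transcript with kallisto 0.46.0 on GRCh38 (Trimmomatic 0.33 and FastQC 0.11.9 are named in the submitters' processing notes), and the deposited files hold these expected counts and TPM values per library, before any batch correction. Estimated counts and TPM were summed per gene by transcript identifier without version in GENCODE v29, which matched 169797 of 188753 transcripts. Rounded counts were fitted in edgeR 4.0.16 (R 4.3.3), by its quasi-likelihood test, after filterByExpr (minimum count 10, total 15) and TMM, on all 12 libraries with group and experiment as a replicate block. The experiments pair the libraries by their labels, and deviations from the group means correlated at 0.14 to 0.66 in the 18 pairs of the same experiment and at -0.50 to 0.033 in the 36 others. Depth ranged from 4008293 to 38184838 estimated counts, and intervals are at 95%. A gene was called at a fold over 1.5 and an adjusted p of at most 0.05. On simulated data for the mean of the constructs against GFP (14901 genes), 196 of 200 genes changed 2-fold were recovered with 10 false calls. Of 200 genes changed 1.5-fold, 161 were recovered by the adjusted p alone, with 11 false calls. The simulated counts held no difference between experiments, and genes at low levels were not changed. No such data were made for the constructs against each other, so no recovery is known there.

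Alternatives were DESeq2 1.42.0, its size factors, limma 3.58.1 on log2(TPM + 1) or log2(TPM + 0.1), other filters, batch terms and thresholds, and libraries left out. The members, gene lists and tests were chosen with earlier results of these data known. Named genes were the members, TYRO3, SREBF1, the 3 genes of each list with the smallest p in the mean of the constructs against GFP, and the 5 most like the members in log2(CPM + 0.05), of which some are not reported here. Levels between genes were compared in TPM. Tables and figures were made with Python, pandas and matplotlib.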

Additional observations from a re-analysis of the deposited data

How the results depend on the processing

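Among the 10 genes, depth limits PNPLA3, ACSS2 and FADS2 most in the GFP library of experiment 1, and 3 libraries per group limit every comparison. The calls among the 10 genes are given here for WT, dGS, dADAM and the mean of the constructs against GFP in that order, where they were 2, 6, 5 and 5, over all genes 355, 706, 785 and 857. Without a replicate block, with a term for experiment 1 against the others, they were 0, 1, 2 and 5 (over all genes 6, 69, 168 and 500), and with neither block nor batch term 0 in each (3, 4, 5 and 19 over all genes). A fit of only the groups compared gave 0 with WT. DESeq2 gave 4 with WT (611 over all genes), counts scaled from TPM 1 with WT, 4 with dGS and 3 with dADAM, limma on log2(TPM + 1) or log2(TPM + 0.1) gave 0, 4, 2 and 4, no filter gave 4 with WT (577 over all genes), and no fold threshold 4 with WT. Over single libraries or experiments left out, the calls ranged from 0 to 7 with WT, 1 to 7 with dGS, 0 to 6 with dADAM and 4 to 7 for the mean of the constructs, lowest without experiment 1, experiment 2 or single WT libraries for WT, and highest without experiment 3 for WT. Between constructs no gene of the 10 was called under any alternative run. The cause of these changes was not tested.

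Signs changed in a few small differences. ME1 in the mean of the constructs was 0.029 with counts scaled from TPM, 0.072 with limma on log2(TPM + 1) and 0.073 on log2(TPM + 0.1). WT against the variants ranged from -0.29 to 0.45 for ACACA and from -0.040 to 0.26 for FASN, the lowest value without experiment 3 and the highest without experiment 1, and for ACACA -0.20 without the WT library and -0.020 without the dGS library of that experiment. Of the 5 genes most like the median of the members, 2, LRRK2 included, were among the 5 most like it without experiment 1. Ratios below the control were 96.7% by CPM, 93.3% by TPM and 98.3% without experiment 1.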

Other observations

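For the lists of other lipid genes, calls are given for the mean of the 3 constructs against GFP, where 3.48% of all genes were called higher and 2.19% lower. Of 16 glycerolipid synthesis genes tested, 2 were called higher and none lower: GPAT3, an acyltransferase of the endoplasmic reticulum, rose from 21.3 ± 4.98 CPM (SD, n = 3) with GFP to 48.0 ± 30.9 with WT, 53.2 ± 15.5 with dGS and 51.7 ± 20.8 with dADAM, and DGAT2, which makes triacylglycerol, rose from 1.02 ± 0.201 CPM to 2.45 ± 0.687, 2.75 ± 0.695 and 2.60 ± 1.10. Their log2 fold changes were 1.14 ± 0.19 and 1.08 ± 0.24 (SE), with adjusted p-values of 0.00413 and 0.0152 (edgeR). DGAT2 was near the floor and rested on 3, 41 and 23 counts in the GFP libraries of experiments 1, 2 and 3. In the same order GPAT3 was at 25.5, 22.5 and 15.8 CPM with GFP and at 83.2, 35.2 and 25.5 with WT. With WT its difference was thus widest in experiment 1, whose only control is the shallow GFP library. LIPE, a lipase of stored fat, was at -0.48 ± 0.13. Fatty acid oxidation had 0 of 21 tested genes called, with CPT1A, the gate of mitochondrial import, at 0.38 ± 0.088 and ACADM at -0.22 ± 0.063. Among 9 genes of uptake and binding, SLC27A2, an acyl-CoA synthetase and transporter, rose from 1.58 ± 0.536 CPM with GFP to between 4.68 and 5.30 with the constructs, and FABP7, a fatty acid binding protein of neural crest lineages, fell from 14.7 ± 5.72 CPM to between 6.86 and 7.01. SLC27A2 was also near the floor, with 4, 58 and 42 counts in the GFP libraries of experiments 1, 2 and 3. SLC27A3 was at -0.22 ± 0.14.

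Over the 12 libraries, with the mean of each experiment removed, the genes whose log2 CPM followed the median of the 10 genes most closely included LRRK2 (Pearson r = 0.987), PLS3 (0.984), PEG10 (0.982) and UGCG (0.982), among 9942 genes with a mean of at least 10 CPM. The points share libraries and the GFP control of their experiment, and genes are not independent replicates, so these r values are a description. Of the members themselves, ACLY (0.995), FASN (0.981) and PNPLA3 (0.978) lay closest to the median, while FADS2 (0.714) and ME1 (0.229) lay farthest from it.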
